A study of Rattus norvegicus with 4 samples.

Results

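The CC chemokines are small secreted proteins named for a pair of adjacent cysteines near the start of the mature protein. They steer leukocytes that carry matching G protein-coupled receptors: the inflammatory members are made mostly by stimulated macrophages, lymphocytes and mast cells and draw in monocytes and effector cells, while the homeostatic members place lymphocytes and dendritic cells within lymph nodes. The set described here holds the 10 members Ccl2, Ccl3, Ccl4, Ccl5, Ccl6, Ccl7, Ccl17, Ccl19, Ccl20 and Ccl22, out of 14217 genes that the platform annotation gives as the single symbol of a probe set. Every probe set with 1 of these symbols was taken, dim ones included, which gave 11 probe sets. Ccl22 had 2 probe sets and each other gene 1. Probe sets were taken by symbol and not by signal, although the 10 genes were picked with earlier results of these data known.

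The arrays compared AA4+ cells, labelled as mast cells, that came from the pancreatic lymph nodes of BioBreeding rats, all female and 65 days old. The diabetes-prone group was DRlyp/lyp, homozygous for the lyp mutation of Gimap5, which leaves rats short of peripheral T cells, and the resistant group was DR+/+, with both normal alleles. RNA of 8 animals per group formed 1 pool, and each pool was amplified and hybridised 2 times, giving 4 arrays. Values below are signal in linear units, as mean ± SD over the 2 arrays of a pool (n = 2), and differences are log2 signal, DRlyp/lyp minus DR+/+. The p-values compare 2 pools through the spread between amplifications, no spread between animals can be had, and an exact permutation of 2 arrays against 2 cannot go below 0.333 (two-sided).

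The AA4+ cells held RNA of other cells besides mast cells: all 12 T cell markers and all 7 matched B cell markers read above 28.3, the signal under which a probe set was treated as dim, on every array. Shares of marker genes called are to be read against 42.0% called among 9349 genes with 1 probe set each (20.9% higher and 21.1% lower). Of 12 mast cell markers, 11 were matched and 9 tested, 3 higher (Fcer1a, Mcpt1 and Il1rl1) and 2 lower (Tpsb2 and Tpsab1). Il1rl1 was dim on both DR+/+ arrays and entered the test through the DRlyp/lyp arrays only. Summed signal was 2830 to 2929 in the DRlyp/lyp pool and 1807 to 1816 in the DR+/+ pool. Mcpt1 made most of the gap between these sums. It read 1664.8 and 1601.9 on the DRlyp/lyp arrays and 668.9 and 655.4 on the DR+/+ arrays. The stem cell factor receptor Kit, another of these markers, read 1.4 and 2.0 on the DRlyp/lyp arrays and 10.4 and 11.3 on the DR+/+ arrays, all of them dim. Exocrine pancreas genes differed most, with 11 of 11 tested higher and summed signal of 9211 to 9411 in the DRlyp/lyp pool and 239 to 243 in the DR+/+ pool. Of these, Prss2, Cpa1, Cpb1, Cel, Ctrb1 and Clps were dim on both DR+/+ arrays. They entered the test through the DRlyp/lyp arrays only, so any call on them could only be higher. Of 4 neutrophil markers tested 3 were higher, and of 5 endothelial markers 1 was higher and 2 were lower. The endothelial marker Lyve1, counted as not called, had another probe set called lower (-1.16). Fewer cells of a type and less RNA per cell cannot be told apart in such pools. The 3′ minus 5′ signal of beta-actin, which grows as amplified RNA shortens, was 4.43 and 4.55 on the DRlyp/lyp arrays and 3.01 and 3.10 on the DR+/+ arrays (log2), and its part in the differences below was not tested.

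The family split. Ccl3 and Ccl4 were lower in the DRlyp/lyp pool, Ccl17, Ccl22 and Ccl5 were higher, and Ccl2, Ccl6 and Ccl19 did not pass the threshold of an adjusted p under 0.05 (limma, Benjamini-Hochberg over 16068 probe sets). Of the 11 probe sets, 8 were bright enough to be tested, and 3 of these were higher and 2 lower. Among all probe sets tested, 19.3% were called higher, 19.9% lower and 39.2% either way, so 5 calls of 8 stand beside a background in which calls were common. The arrays of both pools did not overlap for 6 of the 8, against 70.0% of all tested probe sets. The median difference of the 8 was 0.15, against -0.00050 over all tested probe sets, and the median size without sign was 0.42, against 0.39.

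**Figure D1:**
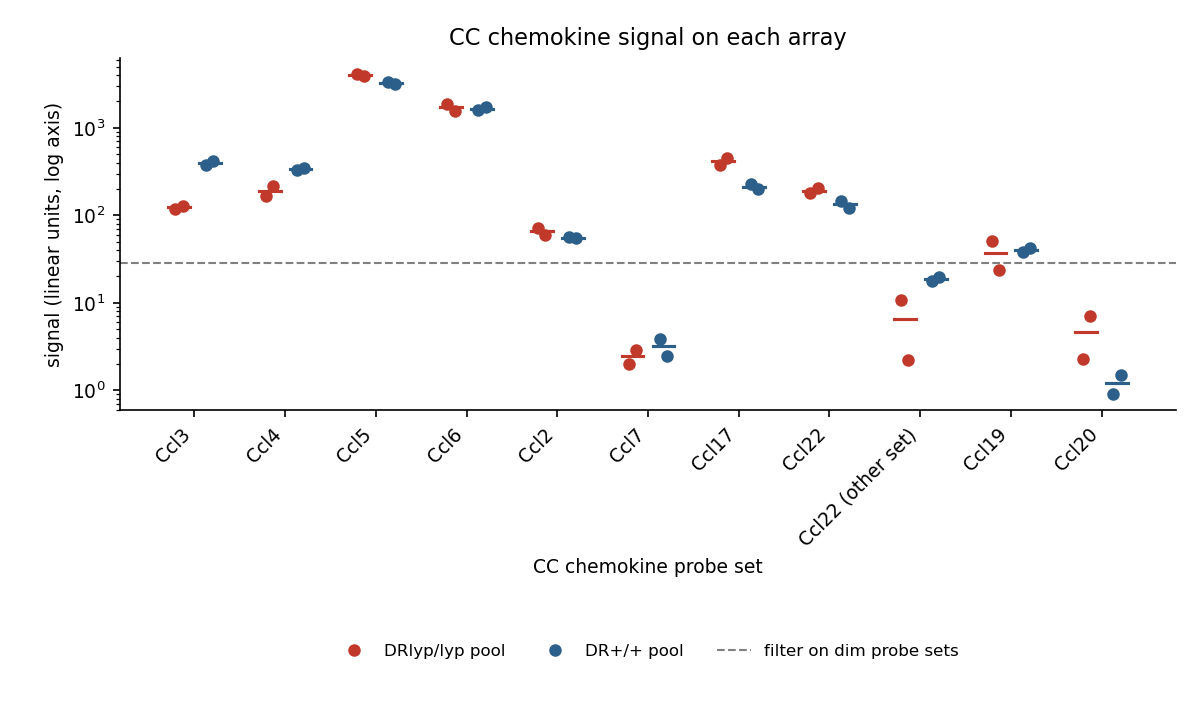
Signal of the 11 CC chemokine probe sets on each array, on a log axis, with the DRlyp/lyp pool to the left of the DR+/+ pool for each probe set. Points are arrays, short bars are pool means and the dashed line is the filter of 28.3; Ccl3 and Ccl4 sit lower in the DRlyp/lyp pool, Ccl17 and the brighter Ccl22 set higher, and 3 probe sets stay under the line on every array.

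Ccl3, a ligand of Ccr1 that attracts monocytes and T cells, had the largest difference of the 8 tested sets. It read 119.3 and 128.2 on the DRlyp/lyp arrays and 378.3 and 422.4 on the DR+/+ arrays. Both DRlyp/lyp arrays lay below both DR+/+ arrays, and the gap was far wider than the spread within either pool. The means were 124 ± 6.29 in the DRlyp/lyp pool and 400.4 ± 31.2 in the DR+/+ pool, a 3.23-fold lower signal in the DRlyp/lyp pool (difference -1.69 ± 0.15, SE; 95% interval -2.02 to -1.37; limma adjusted p = 6.24e-06). Of all tested probe sets, 3.10% had a larger difference in size. The call held under all 13 alternative settings, with differences of -1.80 to -1.37.

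Ccl4, the close relative of Ccl3 and an attractant of T cells and monocytes, moved the same way by less. Its signal was 165.3 and 215.7 on the DRlyp/lyp arrays and 329.4 and 347.0 on the DR+/+ arrays, again without overlap. The means of 191 ± 35.6 in the DRlyp/lyp pool and 338 ± 12.4 in the DR+/+ pool differed by -0.84 ± 0.16 (SE; 95% interval -1.19 to -0.50; 1.79-fold lower; limma adjusted p = 0.00139). The Ccl4 call was lost with every probe set tested regardless of brightness (adjusted p = 0.121) and in the test against a 1.5-fold difference (adjusted p = 0.452). In that stricter test Ccl3 was the one CC chemokine called.

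Ccl5, a ligand of Ccr1 and Ccr3 made by T cells and cytotoxic lymphocytes, was bright in both pools and slightly higher in the DRlyp/lyp pool. It read 4155.2 and 3949.4 on the DRlyp/lyp arrays and 3330.6 and 3188.3 on the DR+/+ arrays. The 4 arrays did not overlap, and the means of 4052 ± 146 in the DRlyp/lyp pool and 3259 ± 101 in the DR+/+ pool gave a 1.24-fold difference (0.31 ± 0.056, SE; 95% interval 0.19 to 0.44; limma adjusted p = 0.000992). Of all tested probe sets, 58.5% had a larger difference in size. Centring each array on its median moved the median of all tested probe sets by -0.11, and Ccl5 then differed by 0.20 and was not called (adjusted p = 0.0592). The call was also lost with every probe set tested (adjusted p = 0.0971), without the intensity trend of the variance model (adjusted p = 0.116) and against a 1.5-fold difference (adjusted p = 1.0).

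Ccl6, a chemokine of myeloid cells that in mouse signals through Ccr1, was bright and did not pass the threshold. Its signal was 1890.8 and 1541.9 on the DRlyp/lyp arrays and 1578.1 and 1710.8 on the DR+/+ arrays, so the pools overlapped. The difference was 0.055 (95% interval -0.15 to 0.26; limma adjusted p = 0.676), an interval that spans 0.901-fold to 1.20-fold. Its sign turned with arrays centred on their medians (-0.057).

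The ligands of Ccr2 gave no call. Ccl2, the main monocyte attractant of the family, read 72.3 and 59.2 on the DRlyp/lyp arrays and 56.2 and 54.8 on the DR+/+ arrays. The arrays did not overlap, but the 95% interval of the difference of 0.24 ran from -0.35 to 0.82 (limma adjusted p = 0.516), which does not show that the pools were alike. The Ccl2 difference was 0.093 without DRlyp/lyp replicate 1, 0.38 without DRlyp/lyp replicate 2 and 0.13 both with arrays centred on their medians and with 50 added to each value instead of a floor. Ccl7, a second Ccr2 ligand, was dim throughout, at 2.0 and 2.9 on the DRlyp/lyp arrays and 3.9 and 2.5 on the DR+/+ arrays, and was not tested.

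Ccl17 and Ccl22, both ligands of Ccr4 made chiefly by dendritic cells and macrophages and attracting type 2 helper and regulatory T cells, were higher in the DRlyp/lyp pool. Ccl17 read 373.0 and 454.8 on the DRlyp/lyp arrays and 225.9 and 200.0 on the DR+/+ arrays. Its arrays did not overlap, and its difference of 0.95 ± 0.14 (SE; 95% interval 0.64 to 1.27; 1.94-fold; limma adjusted p = 0.000330) was the largest higher one of the set. Of all tested probe sets, 14.4% had a larger difference in size. The Ccl17 call was lost with every probe set tested (adjusted p = 0.0843) and against a 1.5-fold difference (adjusted p = 0.146).

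Ccl22 was measured by 2 probe sets that did not give the same picture. The brighter one, 1370620_at, read 177.6 and 206.0 on the DRlyp/lyp arrays and 146.2 and 120.0 on the DR+/+ arrays, a 1.44-fold difference without overlap (0.53 ± 0.18, SE; 95% interval 0.13 to 0.93; limma adjusted p = 0.0361). The other, 1370619_at, read 10.8 and 2.2 on the DRlyp/lyp arrays and 17.8 and 19.9 on the DR+/+ arrays. Its values lean the opposite way, but all 4 were dim and it was not tested. The call on the brighter set rested on few arrays: leaving out DRlyp/lyp replicate 1 raised the adjusted p to 0.102, leaving out DRlyp/lyp replicate 2 to 0.269 and leaving out DR+/+ replicate 2 to 0.127, and the call also failed with arrays centred on their medians (0.42, adjusted p = 0.0975), with every probe set tested (adjusted p = 0.201), without the intensity trend (adjusted p = 0.0820) and against a 1.5-fold difference (adjusted p = 1.0).

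Because Ccl17 and Ccl22 neighbour each other and were both higher, the bases before their starts are shown. Chromosome 19 of the GRCr8 assembly has a single coding gene between them, the chemokine Cx3cl1, which was dim at 2.0 and 3.7 on the DRlyp/lyp arrays and 4.5 and 4.0 on the DR+/+ arrays. The sequences are the 250 bases before the start that RefSeq gives in GRCr8, both on the minus strand, at chr19:10209896-10210145 for Ccl17 and chr19:10270360-10270609 for Ccl22. The Ccl17 window lies inside the longer span of that gene's record. Capitals mark matches to STAT-type motifs.
Ccl17: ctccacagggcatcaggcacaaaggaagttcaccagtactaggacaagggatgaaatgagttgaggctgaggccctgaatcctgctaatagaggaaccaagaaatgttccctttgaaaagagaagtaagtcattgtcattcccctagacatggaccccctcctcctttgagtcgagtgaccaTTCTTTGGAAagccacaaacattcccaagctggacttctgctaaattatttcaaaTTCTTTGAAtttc
Ccl22: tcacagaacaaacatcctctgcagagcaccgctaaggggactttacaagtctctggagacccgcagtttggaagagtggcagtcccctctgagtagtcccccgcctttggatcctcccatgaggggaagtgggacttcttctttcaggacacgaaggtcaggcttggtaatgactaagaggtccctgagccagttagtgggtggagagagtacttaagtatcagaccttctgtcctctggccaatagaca
The motifs searched on both strands were TTCNNNGAA (STAT, 3-base spacer), the same arms with a 4-base spacer, TGANTCA (AP-1), TATAAA for the TATA box and the NF-kB consensus. The Ccl17 window held 1 match to each STAT-type motif, TTCTTTGAA at 13 to 5 bases before the start and TTCTTTGGAA at 68 to 59 bases, and no others. The Ccl22 window held none of the 5 motifs. Among 33469 promoter windows of this length, 7.67% held the 3-base-spacer motif and 6.25% the 4-base-spacer one, 6.34% the AP-1, 12.9% the TATA box and 3.54% the NF-kB motif. Windows were at hand for 6 of the 10 genes, the others of these being Ccl6, Ccl7, Ccl19 and Ccl20. Ccl6 and Ccl7 each held a TATA box, Ccl7 an AP-1 match and Ccl20 an NF-kB match, Ccl19 held none, and none of the matches overlapped.

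The homeostatic member Ccl19 and the Ccr6 ligand Ccl20 were faint. Ccl19, which acts on Ccr7 to bring T cells and dendritic cells together in the node, read 51.2 and 23.8 on the DRlyp/lyp arrays and 37.7 and 42.3 on the DR+/+ arrays. The DRlyp/lyp arrays lay on either side of the DR+/+ arrays (difference -0.19, 95% interval -1.08 to 0.69, limma adjusted p = 0.737). The sign hung on 1 array, with a difference of -0.75 without DRlyp/lyp replicate 1 and 0.36 without DRlyp/lyp replicate 2. Ccl20, the ligand of Ccr6, was dim at 2.3 and 7.0 on the DRlyp/lyp arrays and 0.9 and 1.5 on the DR+/+ arrays and was not tested. All 10 reticular stroma markers, among them the node fibroblast genes Pdpn, Pdgfrb and Cxcl13, were also dim, with summed signal of 112 to 135 in the DRlyp/lyp pool and 67.6 to 81.4 in the DR+/+ pool.

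**Figure D2:**
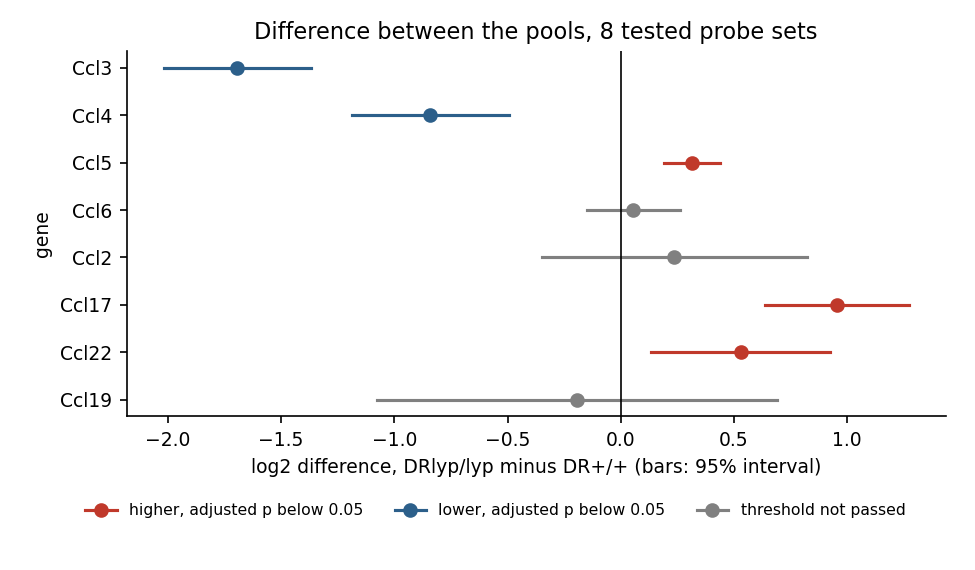
Log2 difference of the 8 tested CC chemokine probe sets, DRlyp/lyp minus DR+/+, with 95% intervals from limma. Ccl3 (-1.69) and Ccl4 (-0.84) lie left of 0, Ccl17 (0.95), Ccl22 (0.53) and Ccl5 (0.31) right of it, and the intervals of Ccl2, Ccl6 and Ccl19 cross 0.

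The chromosome 10 chemokine cluster held genes called in both directions. In GRCr8 the coding genes run Ccl5, Ccl9, Ccl6, Ccl3 and Ccl4 with none between them. Ccl5 was higher (0.31), Ccl9 differed by -0.32 without passing the threshold (limma adjusted p = 0.274), Ccl6 differed by 0.055, and Ccl3 and Ccl4, side by side at the end of the row, were both lower. Ccl2 and Ccl7, also neighbours, lie apart from these with 30 coding genes between. Of 10 further CC chemokines listed, 6 were matched, and Ccl9 was the 1 tested. Ccl11, Ccl21, Ccl24, Ccl27 and Ccl28 were too dim to be tested.

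Among the 6 CC chemokine receptors tested, Ccr6 alone was called. This receptor of B cells, type 17 T cells and dendritic cells read 2850.9 and 2691.7 on the DRlyp/lyp arrays and 1879.9 and 1523.4 on the DR+/+ arrays. The arrays did not overlap, with means of 2771 ± 113 in the DRlyp/lyp pool and 1702 ± 252 in the DR+/+ pool, and the signal was 1.64-fold higher in the DRlyp/lyp pool (0.71 ± 0.090, SE; limma adjusted p = 9.10e-05), while the signal of its ligand Ccl20 stayed dim. The Ccr6 call was lost with every probe set tested (adjusted p = 0.114) and against a 1.5-fold difference (adjusted p = 0.568).

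Ccr1, the shared receptor of Ccl3, Ccl5 and Ccl6, read 183.3 and 175.1 on the DRlyp/lyp arrays and 137.6 and 186.9 on the DR+/+ arrays, which overlapped (0.16, 95% interval -0.25 to 0.57, limma adjusted p = 0.529). Ccr2, the receptor of Ccl2 and Ccl7 on monocytes, read 104.5 and 68.9 on the DRlyp/lyp arrays and 111.6 and 108.9 on the DR+/+ arrays (-0.38, 95% interval -0.91 to 0.15, limma adjusted p = 0.240). Ccrl2, which binds chemerin rather than signalling for CC chemokines, differed by -0.46 (limma adjusted p = 0.115), Ccr10 by 0.19 and the scavenging receptor Ackr4 by 0.50, none past the threshold. Ccr4, the receptor of Ccl17 and Ccl22, was dim on all 4 arrays, at 16.0 and 1.0 in the DRlyp/lyp pool and 12.1 and 3.4 in the DR+/+ pool, as were Ccr3 and Ackr2. Ackr1 passed 28.3 on 1 array. Ccr7, Ccr8 and Ccr9 were not analysed here. Over the list of 14, 10 were matched, 6 tested, 1 higher and 0 lower by limma (also 0 lower at an unadjusted p under 0.05), against 42.0% called over all genes.

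Taken by the brightest tested probe set of each gene, genes that carry the signal from chemokine receptors were called about as often as genes at large. Of 17 tested, calls fell on 4 higher and 3 lower ones, beside 42.0% called over all genes, and the median difference was 0.056. The arrestin Arrb1, which ends receptor signalling, was higher (0.87, limma adjusted p = 0.00115). The receptor kinase Grk6 had no settled direction: its brightest probe set was higher (6172 ± 71.6 in the DRlyp/lyp pool and 3143 ± 109 in the DR+/+ pool; 0.97, limma adjusted p = 1.13e-07), but the other 2 tested sets were lower (-0.37 and -1.23, limma adjusted p = 0.0419 and 0.0142). The G protein subunit Gnb1, counted as higher through its brightest set (0.80), likewise had a set called lower (-0.46). Gnb2, Gng2 and Rac1, counted as not called, each had another set called lower (-0.64, -1.06 and -0.39), so the count depends on the set taken. The tyrosine kinase Ptk2b was lower, at 19.1 and 43.4 on the DRlyp/lyp arrays and 113.7 and 84.9 on the DR+/+ arrays (-1.77, limma adjusted p = 0.00317), and so was Rgs2, which shortens G protein signals (597 ± 4.38 in the DRlyp/lyp pool and 1168 ± 11.3 in the DR+/+ pool; -0.97). The brightest Grk6 probe set and the Ptk2b probe set are of the kind that can match several transcripts, so signal of related transcripts may be included.

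Other genes of stimulated cells and markers of cells that make these chemokines are given here, and they did not all move with them. Macrophage markers were mostly lower, unlike Ccl17 and Ccl22, and T cell markers were higher, unlike Ccl3 and Ccl4. Immediate-early genes, induced by stimulation and by tissue handling, were lower beside Ccl3 and Ccl4: of 20 tested, 15 were lower and 0 higher by limma (0 higher at an unadjusted p under 0.05), beside 21.1% and 20.9% of all genes, with a median of -0.99 and summed signal of 12126 to 12377 in the DRlyp/lyp pool and 26507 to 27065 in the DR+/+ pool. By the brightest tested set of each gene, Fosb (-3.30) and Rhob (-2.29) had the largest differences of that list. Another Jun set differed by -3.92 and another Klf2 set by -2.74, both called lower. Of 9 macrophage markers tested, 6 were lower and 2 higher (median -0.68), with summed signal of 7047 to 7067 in the DRlyp/lyp pool and 10059 to 10796 in the DR+/+ pool. C1qa, C1qb, C1qc and Csf1r were among the lower ones and Cd68 and Mrc1 were the higher ones. The part of either group in the Ccl3 and Ccl4 differences was not tested.

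Over all genes 20.9% were called higher and 21.1% lower, and the marker counts here are small. Beside Ccl17 and Ccl22, dendritic cell markers split. Of 8 tested, 4 were higher (Itgax, Batf3, Clec10a and Itgae) and 1, Irf8, was lower, with a median of 0.31, though summed signal was 4536 to 4840 in the DRlyp/lyp pool and 4847 to 5202 in the DR+/+ pool. Sirpa, counted as not called, had another set called lower (-1.25). Markers of mature dendritic cells leaned lower: of 6 tested, 4 were lower (Lamp3, Cd86, Cd40 and Socs2) and 1, Cd83, was higher, with a median of -0.45 and summed signal of 6038 to 6148 in the DRlyp/lyp pool and 6126 to 6186 in the DR+/+ pool. Socs2 was dim on both DRlyp/lyp arrays and entered the test through the DR+/+ arrays only, so any call on it could only be lower. Beside Ccl5, all 12 T cell markers tested were higher by their brightest tested set (median 2.19), with summed signal of 11029 to 11111 in the DRlyp/lyp pool and 2377 to 2623 in the DR+/+ pool. Another Cd8a set (-0.17) and another Cd247 set (-0.22) were not called. The higher pool came from the rats that the lyp mutation leaves short of peripheral T cells, and the reason was not tested. Among 12 NK and cytotoxic cell markers 6 were higher and 2 lower (median 0.25). Gzmb was called lower by 1 of its probe sets and higher by another. Ncr1, the other lower one, was dim on both DRlyp/lyp arrays and entered the test through the DR+/+ arrays only. Summed signal of the NK and cytotoxic list was 8547 to 8775 in the DRlyp/lyp pool and 6955 to 7452 in the DR+/+ pool. Of 7 B cell markers, read beside Ccr6, 0 were higher by limma (0 at an unadjusted p under 0.05) and 3 lower, a share called near the 42.0% over all genes (median -0.27), with summed signal of 10573 to 11274 in the DRlyp/lyp pool and 12889 to 14084 in the DR+/+ pool. That count took the brightest tested set of each gene. Of those not called, Cr2 had every other set called lower (-0.51 to -1.39). Fcer2 had another set, dim in the DRlyp/lyp pool, called lower (-2.85). The part of these cell types in the chemokine and receptor differences was not tested.

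**Figure D3:**
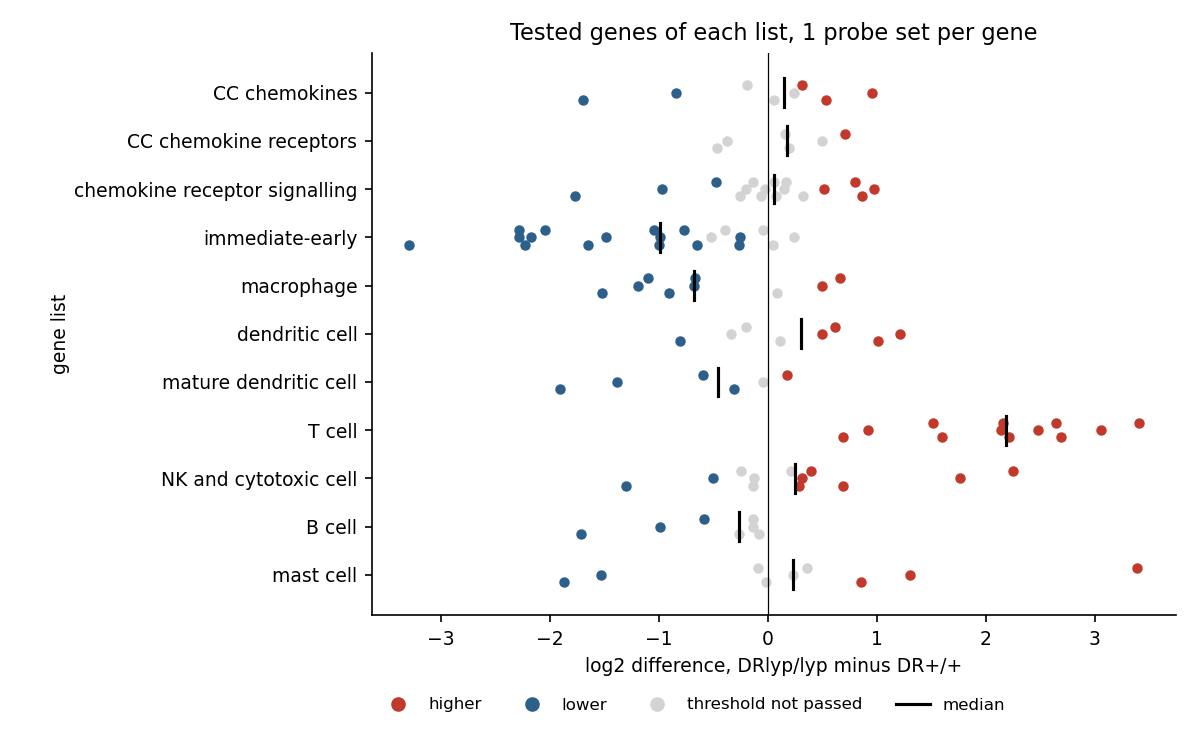
Log2 difference, DRlyp/lyp minus DR+/+, of each tested gene in 11 lists, with 1 probe set per gene and a black bar at each list's median. The CC chemokines reach from -1.69 to 0.95 around a median of 0.15, while the T cell list lies wholly to the right of 0 (median 2.19) and the immediate-early list mostly to the left (median -0.99).

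**Figure D4:**
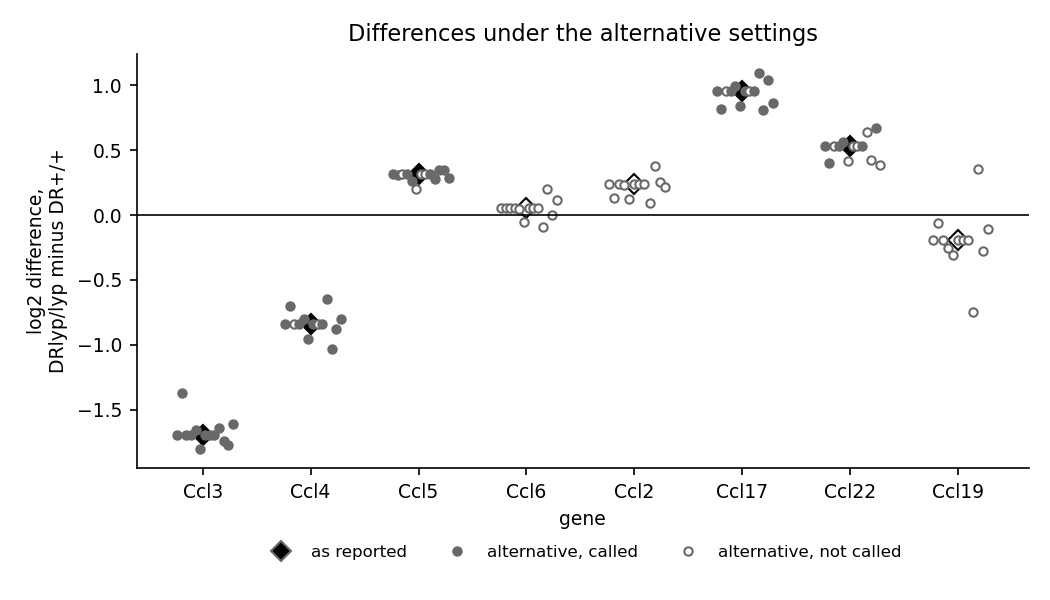
Log2 difference of the 8 tested CC chemokine probe sets as reported (diamonds) and under 13 alternative settings or fewer where a filter left the set out (circles). Filled symbols passed an adjusted p of 0.05 and open ones did not; Ccl3 was filled throughout, and signs changed for Ccl6 and Ccl19, neither of which was called.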

How the data were processed

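The table the authors deposited gives a linear intensity for each probe set on each Affymetrix Rat Genome array. Pooled RNA was amplified in 2 cycles, per the labels' design text. Which program and scaling gave these values is not given in the sources used here. After that step the 2% trimmed mean was 150.1 on every array, and values were kept as deposited. Groups and replicate numbers come from the sample titles, with DP read as DRlyp/lyp and DR as DR+/+ from the descriptions.

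The 57 control sets were left out. Values under the 25th percentile of all arrays (6.8) were raised to it before taking log2, and the 16068 probe sets exceeding the median of all arrays (28.3) on 2 or more arrays were tested with limma 3.58.1 in R 4.3.3 (lmFit, eBayes with an intensity trend, 2 residual degrees of freedom, two-sided), with Benjamini-Hochberg adjustment over all of them. Gene names came from the platform's annotation, and the Entrez numbers of all members matched the same symbols in RefSeq's GRCr8 table. The files name no genome build, so coordinates are given for reference sequence only. For a listed gene with several probe sets, the tested one of highest mean log2 signal was used. All members and listed receptors were named, and for the signalling and immediate-early lists up to 2 called genes each way by size of difference. Ccl9, Cx3cl1, Gnb1 and individual marker genes were named after their values were seen. The members and the lists were chosen with earlier results of these data known. Levels of different genes were not compared. Alternatives covered the floor, offset, filter, scaling, variance trend, a 1.5-fold threshold, a block on the replicate number and leaving out each array. Figures used matplotlib 3.10.9.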

Additional observations from a re-analysis of the deposited data

How the results depend on the processing

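Of 102 recomputed member differences, 83 kept direction and side of the threshold, 15 kept direction and lost the call, and 4 changed sign. The sign changes were those of Ccl6 (-0.057 with arrays centred on their medians, and -0.092 to 0.20 when 1 array was left out) and Ccl19 (-0.75 to 0.36 when 1 array was left out). Of 8 tested CC chemokine probe sets, 5 were called as reported, 3 with centring or without the intensity trend, 1 without a filter (of 11 tested) and 1 against a 1.5-fold difference, and 4 to 5 when 1 array was left out. The 1 receptor call, Ccr6, was lost without a filter and against a 1.5-fold difference, giving 0 calls by limma (1 and 0 at an unadjusted p under 0.05). Over all probe sets the count of 6302 became 1671 without a filter, 4057 without the trend and 958 against a 1.5-fold difference, and ran from 3478 (without DRlyp/lyp replicate 1) to 5800 when 1 array was left out, with 3767 without DRlyp/lyp replicate 2. The cause was not tested. With centring 36.2% of calls were higher, against 49.3% as deposited. A replicate block gave 7044 calls over all probe sets and the same 5 and 1 for chemokines and receptors; same-numbered arrays deviated together with r = 0.044 across probe sets, and the numbers name amplifications of separate pools. The mean of a gene's tested probe sets was not run, since no member had more than 1 tested. Probe sets under 28.3 on every array carry no usable difference.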
